A study of Mus musculus with 22 samples.

Results

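The BCL2 family was followed through 10 genes of the mouse kidney: the anti-apoptotic members Bcl2, Bcl2l1 and Mcl1, the effectors Bax and Bak1, and the BH3-only members Bid, Bbc3, Pmaip1, Bcl2l11 and Bik. They were picked by symbol from the 32858 genes that had reads, by a rule that sets no threshold on a measured value, and all 10 were among the 17131 genes with enough counts to be tested. BCL2 family proteins decide at the outer mitochondrial membrane whether a stressed cell enters apoptosis. BAX and BAK can open pores in that membrane and release cytochrome c, anti-apoptotic members bind and hold them back, and BH3-only proteins, several of which are induced after DNA damage, relieve that block or activate the effectors directly. Cisplatin forms DNA adducts, and the proximal tubule, which takes the drug up, is its best known target in the kidney.

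The study asked whether KW6002 (istradefylline), an antagonist of an adenosine receptor, changes the response of the kidney to repeated cisplatin. Whole kidneys came from male C57Bl6/J mice aged 8 to 10 weeks, with 1 library per mouse. There were 5 vehicle mice, 6 with KW6002 only, 5 with cisplatin only and 6 with both drugs (co-treated). Cisplatin was injected intraperitoneally at 3 mg/kg on 6 days, and kidneys were collected 72 hours after the last of these injections. KW6002 was injected intraperitoneally at 3 mg/kg daily, first on day -5 and last on day 7, in a carrier of DMSO, cremophor and saline that also served as the vehicle. The labels name no transgene or deletion in any group. Levels are given as CPM, the counts of a gene scaled to a common library total after TMM scaling, a correction for libraries of different composition, and as mean ± SD over mice. A difference was called when edgeR's quasi-likelihood test, fitted to all 22 libraries, gave a Benjamini-Hochberg adjusted p below 0.05 over all tested genes. A stricter rule, with the thresholds the study used, asks for more: an adjusted p under 0.01 together with a change of over 1 on the log2 scale, up or down.

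Library totals lay between 26471762 and 40510754 counts, and the biological coefficient of variation between mice of a group was 0.129. The mice carry numbers in the 300s (3 vehicle and 3 KW6002 mice) or in the 500s (the other 16), and the labels do not say what the numbers stand for, so in both cisplatin groups number series and treatment cannot be separated except against the vehicle and KW6002 mice of the 500s. When libraries were scaled by their totals only, cisplatin mice stood 0.20 above vehicle mice on the log2 scale at the median gene, and 8157 genes were called higher and 4244 lower, in place of 5930 and 6155 with TMM. The kidney label fitted the markers: 8 proximal tubule genes summed to 38775 to 43461 CPM in vehicle mice. That sum was 3130 to 5396 CPM with cisplatin and 8320 to 14219 CPM with both drugs. The markers thus differed in the same comparisons as the members, though mostly in the opposite direction. Most tested genes were also called in them, 70.5% for cisplatin against vehicle and 55.8% for both drugs against cisplatin. With cisplatin all 8 markers fell, while 7 of the 10 members rose and 2 fell. With KW6002 added 7 of the 8 markers rose, while 6 members fell and 2 rose. The marker sum with KW6002 alone was 38492 to 43870 CPM, which overlaps with the vehicle range. The part of the tubule in the member differences was not tested. In whole kidney, fewer cells of a type and less RNA per cell cannot be told apart.

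For 3 members the DNA just before the transcription start is shown, because they moved differently: Bax and Bcl2l1 were among the members that rose most with cisplatin, and Bcl2 was lower. Each run is the 250 bases before a RefSeq start in build GRCm38.p6 (the same coordinates as mm10), 5′ to 3′ on the minus strand, and holds no annotated exon. Capitals mark matches to the p53 half-site consensus and to the GC box GGGCGG, read on both strands. The Bax window lies at chr7:45466899-45467148, the Bcl2l1 window at chr2:152831729-152831978 (the outermost of 3 starts), and the Bcl2 window at chr1:106714291-106714540.
Bax: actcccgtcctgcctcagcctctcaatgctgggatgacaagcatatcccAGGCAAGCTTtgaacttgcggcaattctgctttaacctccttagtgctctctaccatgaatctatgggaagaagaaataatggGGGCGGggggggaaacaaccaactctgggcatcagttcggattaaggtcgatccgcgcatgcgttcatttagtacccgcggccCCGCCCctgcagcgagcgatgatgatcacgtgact
Bcl2l1: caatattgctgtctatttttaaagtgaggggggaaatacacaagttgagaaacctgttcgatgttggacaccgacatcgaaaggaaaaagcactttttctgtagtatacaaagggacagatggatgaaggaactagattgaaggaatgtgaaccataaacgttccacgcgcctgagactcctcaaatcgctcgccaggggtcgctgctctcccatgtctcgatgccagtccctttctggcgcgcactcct
Bcl2: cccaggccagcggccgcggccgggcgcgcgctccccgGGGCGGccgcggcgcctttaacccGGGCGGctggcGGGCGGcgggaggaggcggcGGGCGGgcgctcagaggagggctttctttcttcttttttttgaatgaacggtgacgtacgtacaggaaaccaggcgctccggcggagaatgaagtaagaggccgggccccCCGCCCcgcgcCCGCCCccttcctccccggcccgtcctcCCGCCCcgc

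The 3 windows had little in common. The Bcl2 window was 74.8% G or C, with 36 CpG dinucleotides and 7 GC boxes, whereas the Bcl2l1 window was 47.6% G or C, with 12 CpG dinucleotides and no GC box. The Bax window was 54.0% G or C, with 14 CpG dinucleotides, 2 GC boxes and 1 p53 half-site match that begins at base -201 from the start. Over all 32851 RefSeq windows of this length, 7.13% held a p53 half-site match, 32.7% held a GC box, and the median composition was 52.4% G or C with 6 CpG dinucleotides. RefSeq windows were at hand for 8 of the 10 members (13 windows), and the Bax match was the only p53 half-site among them. A match is a run of letters and not a measured binding site, and its absence within 250 bases says nothing of sites elsewhere.

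Cisplatin raised 7 of the 10 members and lowered 2. Bbc3, Pmaip1, Bcl2l1, Bax and Bak1 rose beyond the stricter rule, Mcl1 and Bcl2l11 rose by less, Bcl2 and Bid fell, and Bik did not pass the test. Both roles were thus represented on both sides. Of the 3 anti-apoptotic members 2 rose and 1 fell, and of the 7 pro-apoptotic members 5 rose and 1 fell. Among all tested genes, 70.5% were called in this comparison (34.6% higher, 35.9% lower), 24.1% under the stricter rule, and 55.3% had groups whose ranges did not overlap, compared with 9 called, 5 beyond the stricter rule and 9 without overlap among the 10 members. The median log2 fold change was 0.91 over the members and -0.01 over all tested genes.

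**Figure D1:**
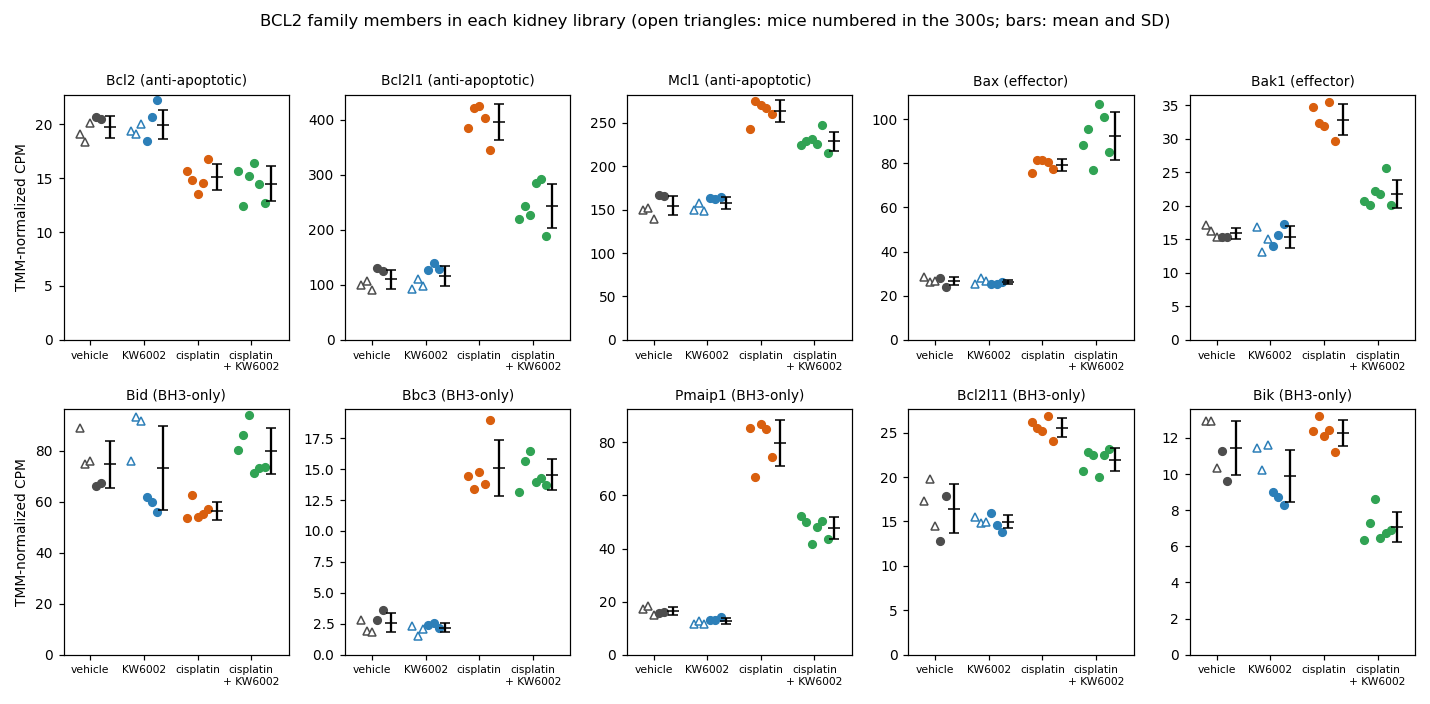
TMM-normalized CPM of each member (vertical axes, each from 0) in each of the 22 libraries, by group. Open triangles are mice numbered in the 300s, filled circles mice numbered in the 500s, and black bars the mean and SD. Every member but Bik had separate ranges in cisplatin and vehicle mice. The co-treated mice lay below the cisplatin mice for Bcl2l1, Bak1, Pmaip1, Bcl2l11 and Bik, and above them for Bid.

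Bcl2 (ENSMUSG00000057329; chr1:106538178-106714274, minus strand), the founding survival member of the family, measured 19.1, 18.4, 20.2, 20.7 and 20.5 CPM in the 5 vehicle mice. In the 5 cisplatin mice it measured 15.6, 14.8, 13.6, 14.6 and 16.8 CPM. Every cisplatin mouse lay below every vehicle mouse. The log2 fold change was -0.39 (SE 0.076, 95% interval -0.55 to -0.23, edgeR adjusted p = 8.15e-05), that is 1.31-fold lower. With scaling by library size alone, in which the typical gene stood 0.20 higher, the difference was -0.17 and not called (adjusted p = 0.0534).

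Bcl2l1 (ENSMUSG00000007659; chr2:152780668-152831728, minus strand), which encodes the survival protein BCL-XL, ran from 90.4 to 131 CPM in vehicle mice. In cisplatin mice its values were 384, 422, 426, 403 and 344.6 CPM. The groups were far apart, with a log2 fold change of 1.84 (SE 0.13, adjusted p = 1.53e-11) or 3.59-fold. Mcl1 (ENSMUSG00000038612; chr3:95658788-95663176, plus strand), a short-lived survival protein, measured 155 ± 11.3 CPM (n = 5) with vehicle and 263 ± 12.6 CPM (n = 5) with cisplatin. Its lowest cisplatin library (243 CPM) was above its highest vehicle library (166 CPM), and the log2 fold change was 0.77 (SE 0.053, adjusted p = 1.23e-11). Of the anti-apoptotic members, then, the 2 with higher counts were higher with cisplatin and Bcl2 was lower.

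Bax (ENSMUSG00000003873; chr7:45461697-45466898, minus strand), a pore-forming effector and a known p53 target, measured 28.3, 26.3, 26.6, 27.8 and 23.8 CPM in vehicle mice. Its values with cisplatin were 75.6, 81.2, 81.4, 80.6 and 77.4 CPM. Within each group the 5 mice were close together, and the groups differed 2.98-fold (log2 fold change 1.58, SE 0.069, adjusted p = 6.71e-15). Bak1 (ENSMUSG00000057789; chr17:27019810-27029009, minus strand), the second effector, rose from 15.9 ± 0.81 CPM (n = 5) with vehicle to 32.8 ± 2.32 CPM (n = 5) with cisplatin, which is 2.06-fold (log2 fold change 1.05, SE 0.078, adjusted p = 4.5e-11). No Bak1 value of either group entered the range of the other. Bak1 shares 437 exonic bases with Ggnbp1 on the other strand, and whether strand was used in counting is not stated.

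Bbc3 (ENSMUSG00000002083; chr7:16308393-16318205, plus strand) encodes PUMA, a BH3-only protein induced by p53, and was the least abundant member in vehicle mice, at 2.82, 1.88, 1.85, 2.78 and 3.64 CPM (47 to 112 counts). With cisplatin it measured 14.5, 13.4, 14.8, 13.8 and 19.0 CPM, in each library above every vehicle library. This was the largest fitted change among the members, 5.78-fold (log2 fold change 2.53, SE 0.15, adjusted p = 1.48e-12). Against the vehicle mice of the 500s alone, the log2 fold change was 2.22. Pmaip1 (ENSMUSG00000024521, chromosome 18), which encodes NOXA, another BH3-only protein and a ligand of MCL1, rose from 16.5 ± 1.41 CPM (n = 5) to 79.8 ± 8.80 CPM (n = 5), 4.85-fold (log2 fold change 2.28, SE 0.083, adjusted p = 4.37e-16). Its cisplatin values of 85.5, 66.8, 87.1, 85.2 and 74.5 CPM were all more than its highest vehicle value, 18.5 CPM.

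The other BH3-only members moved less. Bcl2l11 (ENSMUSG00000027381; chr2:128126038-128162547, plus strand), which encodes BIM, measured 16.5 ± 2.80 CPM (n = 5) with vehicle and 25.6 ± 1.07 CPM (n = 5) with cisplatin (log2 fold change 0.64, SE 0.083, adjusted p = 3.83e-07), with no overlap. Bid (ENSMUSG00000004446; chr6:120891930-120916853, minus strand), which links death receptors to mitochondria after cleavage by caspase 8, measured 88.9, 74.9, 75.9, 66.1 and 67.5 CPM with vehicle. With cisplatin it measured 53.6, 62.5, 54.0, 55.2 and 57.2 CPM. The ranges were separate and the log2 fold change was -0.40 (SE 0.12, adjusted p = 0.00574), but the 3 highest vehicle values were those of mice numbered in the 300s.

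The decline of Bid depended on how the mice and libraries were treated in the fit. With the number series as a covariate it was -0.15 (adjusted p = 0.168), with the mice of the 500s alone -0.25 (adjusted p = 0.0272), and with library size scaling -0.19 (adjusted p = 0.179). Bid shares 628 exonic bases with Bcl2l13 on the other strand, a gene with 57354 counts over all libraries against 50788 for Bid. Bik (ENSMUSG00000016758; chr15:83526862-83544634, plus strand), a BH3-only protein of the endoplasmic reticulum, measured 11.4 ± 1.5 CPM (n = 5) with vehicle and 12.3 ± 0.73 CPM (n = 5) with cisplatin, and the groups overlapped. Its log2 fold change was 0.10 (95% interval -0.11 to 0.32, adjusted p = 0.387). It was called higher with the number series as a covariate (0.28, adjusted p = 0.0152) and with library size scaling (0.32, adjusted p = 0.0102).

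**Figure D2:**
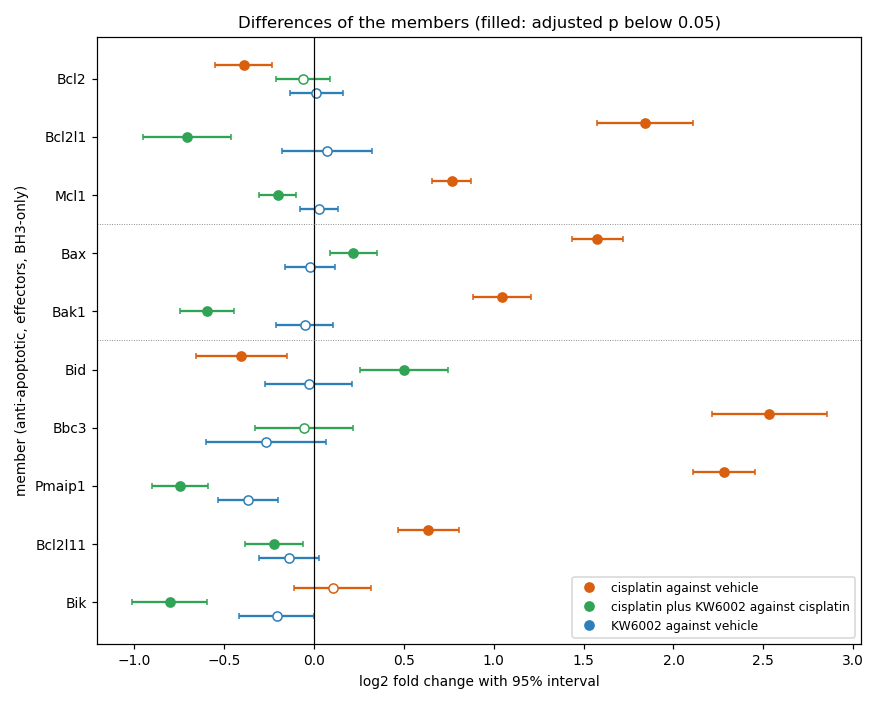
Log2 fold change of each member (horizontal axis) with its 95% interval, for 3 comparisons: cisplatin with vehicle, both drugs with cisplatin alone, and KW6002 with vehicle. Filled points had an adjusted p below 0.05. Differences for cisplatin reached 2.53 (Bbc3), those for added KW6002 lay between -0.80 (Bik) and 0.50 (Bid), and none was called for KW6002 alone.

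Adding KW6002 to cisplatin lowered 6 members (Bcl2l1, Mcl1, Bak1, Pmaip1, Bcl2l11 and Bik) and raised 2 (Bax and Bid), and Bcl2 and Bbc3 did not pass the test. The cisplatin mice of this comparison are those compared with vehicle above. Of the 7 pro-apoptotic members 4 fell and 2 rose, and of the 3 anti-apoptotic members 2 fell. Among all tested genes, 55.8% were called (28.6% higher, 27.2% lower), 10.3% under the stricter rule and 37.8% without overlap. Among the 10 members, 8 were called and 6 were without overlap, and no member had a log2 fold change beyond 1. The median log2 fold change was -0.21 over the members and 0.01 over all tested genes.

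Bik showed the largest of these differences. Its CPM in co-treated mice ran from 6.33 through a median of 6.82 to 8.61, below all 5 cisplatin values (12.4, 13.2, 12.1, 12.4 and 11.2). The log2 fold change was -0.80 (SE 0.10, adjusted p = 6.45e-07), or 1.74-fold lower. Pmaip1 fell 1.67-fold, to between 41.9 and 52.4 CPM with a median of 49.0 CPM (log2 fold change -0.74, SE 0.074, adjusted p = 2.24e-08), and again no co-treated mouse reached the cisplatin range. It still stood 2.90-fold above vehicle (log2 fold change 1.53, adjusted p = 5.05e-13).

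Bcl2l1 measured between 189 and 293 CPM in co-treated mice, with a median of 236 CPM. All 6 lay between the vehicle and the cisplatin ranges. The log2 fold change was -0.71 against cisplatin (SE 0.12, adjusted p = 2.9e-05) and 1.14 against vehicle (adjusted p = 5.43e-08). Mcl1 measured 229 ± 10.8 CPM (n = 6), a log2 fold change of -0.20 (SE 0.050, adjusted p = 0.00163), and its highest co-treated mouse (248 CPM) lay above its lowest cisplatin mouse (243 CPM).

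The effectors went opposite ways. Bak1 fell to 21.8 ± 2.07 CPM (n = 6), with a lowest value of 20.1, a median of 21.3 and a highest value of 25.6 CPM. No co-treated mouse reached the lowest cisplatin mouse (29.6 CPM), and the log2 fold change was -0.59 (SE 0.073, adjusted p = 4.35e-07). Bax measured 76.9 to 107 CPM in co-treated mice, with a median of 91.8 CPM, against 75.6 to 81.4 CPM with cisplatin alone. The ranges overlapped, and Bax varied more between co-treated mice (a coefficient of variation of 11.9%) than between cisplatin mice (3.29%). Its log2 fold change was 0.22 (SE 0.064, adjusted p = 0.0056).

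Among the BH3-only members, Bid was higher with both drugs, at 71.5 to 94.3 CPM with a median of 77.0 CPM. Every co-treated mouse lay above every cisplatin mouse (53.6 to 62.5 CPM), and the difference was 0.50 on the log2 scale (SE 0.12, adjusted p = 0.00103). Against vehicle, Bid differed by 0.10 (95% interval -0.15 to 0.34, adjusted p = 0.489), though it was called higher against the vehicle mice of the 500s alone (0.26, adjusted p = 0.0293). Bcl2l11 fell by 0.22 on the log2 scale (SE 0.078, adjusted p = 0.0198), to a median of 22.5 CPM, and its highest co-treated value (23.2 CPM) lay below its lowest cisplatin value (24.1 CPM). Leaving out cisplatin replicate 4 put its adjusted p at 0.05004.

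Bbc3, the member with the largest response to cisplatin, was not called with added KW6002. Its 6 co-treated values ran from 13.2 to 16.5 CPM, with a median of 14.1 CPM, within the cisplatin range of 13.4 to 19.0 CPM but for 1 mouse. The log2 fold change was -0.05 with a 95% interval of -0.32 to 0.22 (adjusted p = 0.75). For Bcl2, at 12.4 to 16.4 CPM with a median of 14.8 CPM, it was -0.06 with an interval of -0.21 to 0.09 (adjusted p = 0.513).

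Cell types other than tubule also differed between these 2 groups. All 5 fat markers were lower with both drugs, and their sum ran from 37.9 to 211 CPM against 336 to 629 CPM with cisplatin alone. It varied widely without cisplatin, from 133 to 994 CPM with vehicle and from 59.2 to 381 CPM with KW6002. With the mean of these markers as a covariate, an alternative added after seeing the data, Bax (0.18, adjusted p = 0.130), Bid (0.38, adjusted p = 0.0586) and Bcl2l11 (-0.14, adjusted p = 0.311) were no longer called, which left 5 of the 10 members called. Calls also became fewer among all 17131 tested genes, 6871 with this covariate against 9564 without it. In this comparison the covariate is partly confounded with treatment, because the fat sums of the 2 groups did not overlap. Whether fat had a part in a lost call can therefore not be told. Fibroblast markers summed to 262 to 412 CPM with both drugs and 500 to 622 CPM with cisplatin alone (144 to 255 CPM with vehicle), and 4 of these 5 markers were called lower with both drugs. Macrophage markers summed to 126 to 212 CPM and 222 to 313 CPM (172 to 413 CPM with vehicle), with 1 of 6 called lower and 1 higher. The part of these cell types in the member differences was otherwise not tested.

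KW6002 by itself changed no member past the threshold by edgeR, against 0.0175% of all tested genes (3 genes). At an unadjusted p below 0.05 there was 1 of the 10 members, Pmaip1, beside 1930 of all 17131 tested genes. DESeq2 called Pmaip1, as it did 102 of the 16289 genes it tested. Pmaip1 measured 17.2, 18.5, 15.0, 15.5 and 16.0 CPM with vehicle and 11.6 to 14.4 CPM, with a median of 12.9 CPM, with KW6002. Its 2 groups did not overlap, as was so for 1.38% of all genes, and the log2 fold change was -0.37 (95% interval -0.54 to -0.20, adjusted p = 0.0853). DESeq2 gave an adjusted p of 0.0155, and without vehicle replicate 3 the edgeR value was 0.0441. With the mice of the 500s alone the difference was -0.22 (adjusted p = 0.566), and no other setting called it. The other 9 members had overlapping ranges and log2 fold changes between -0.27 (Bbc3, 95% interval -0.60 to 0.07) and 0.07 (Bcl2l1, 95% interval -0.18 to 0.32).

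Whether KW6002 acted differently with and without cisplatin was tested as the difference between the 2 KW6002 effects. It was called for 7 members, 2 positive and 5 negative, and for 42.7% of all tested genes (22.8% positive, 19.9% negative). The difference was negative for Bcl2l1 (-0.78, adjusted p = 0.00081), Bik (-0.59, adjusted p = 0.00199), Bak1 (-0.54, adjusted p = 0.000266), Pmaip1 (-0.37, adjusted p = 0.00856) and Mcl1 (-0.23, adjusted p = 0.0117). It was positive for Bid (0.53, adjusted p = 0.0133) and Bax (0.24, adjusted p = 0.0388). The Bax difference was no longer called with DESeq2 (adjusted p = 0.0656), with library size scaling (0.17, adjusted p = 0.170) or with the mice of the 500s alone (0.23, adjusted p = 0.184). Nor was it called without vehicle replicate 1, 3 or 4, KW6002 replicate 1, 4 or 5, cisplatin replicate 1 or 5, or co-treated replicate 2, 4 or 5, with adjusted p-values from 0.0527 to 0.0712. Mcl1 was lost with the mice of the 500s alone (-0.18, adjusted p = 0.107). For Pmaip1, KW6002 went with a difference of -0.37 without cisplatin and of -0.74 with it.

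Against vehicle, co-treated mice had 7 members higher and 2 lower, of which 4 were beyond the stricter rule and 9 did not overlap. All tested genes gave 59.7% called (29.8% higher, 29.9% lower), 13.4% beyond the stricter rule and 37.5% without overlap. Bbc3 (5.57-fold), Bax (3.47-fold), Pmaip1 (2.90-fold) and Bcl2l1 (2.2-fold) were the members furthest above vehicle. Bcl2 was 1.37-fold lower (log2 fold change -0.45, adjusted p = 1.45e-05). Bik, which cisplatin alone had not moved past the threshold, was 1.62-fold lower than vehicle (log2 fold change -0.70, adjusted p = 4.01e-06).

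Levels of different genes can be compared roughly once counts are divided by exon length, here that of all annotated exons of a gene merged. Which transcripts were expressed was not estimated, so orders, shares and sums per kb are approximate. Per kb of exon, Mcl1 was the most abundant member in vehicle mice (45.3 ± 3.32 CPM per kb, n = 5), followed by Bcl2l1 (24.1 ± 3.77), Bid (21.0 ± 2.56) and Bax (16.9 ± 1.12). Bcl2l1 and Bid overlapped, and the other neighbours in this leading group did not. Bik (7.19), Bak1 (6.60) and Pmaip1 (6.03) formed an overlapping middle group, and Bcl2 (2.16), Bcl2l11 (2.05) and Bbc3 (1.22) the lowest one, in which neighbours overlapped as well. KW6002 mice had the same 4 leading members in the same order, from Mcl1 at 46.2 ± 2.07 CPM per kb (n = 6) to Bax at 16.6 ± 0.67.

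With cisplatin Bcl2l1 led (86.3 ± 7.22 CPM per kb, n = 5), overlapping with Mcl1 (77.0 ± 3.68), and Bax (50.3 ± 1.66) and Pmaip1 (29.2 ± 3.22) followed without overlap. Bcl2 was last, at 1.65 ± 0.13 CPM per kb, below Bcl2l11 (3.19 ± 0.13). In co-treated mice Mcl1 (66.9 ± 3.15, n = 6), Bax (58.6 ± 6.97) and Bcl2l1 (52.96 ± 8.72) came first, each overlapping with the next, and Bid (22.5 ± 2.51) again ranked above Pmaip1 (17.4 ± 1.51). Of the summed level of all 10 members per kb, Bcl2 made up 1.63% with vehicle and 0.57% with cisplatin, whereas Bax went from 12.7% to 17.2%, and to 24.1% with both drugs.

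**Figure D3:**
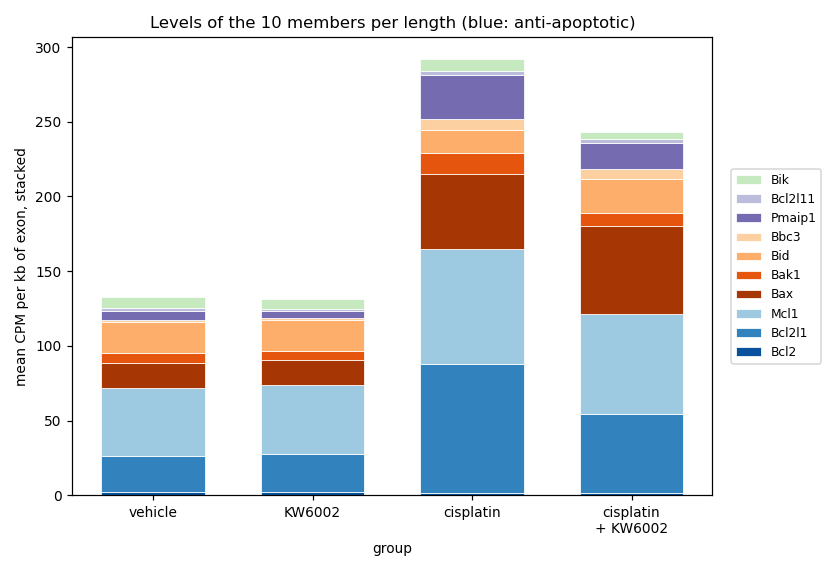
Group means of CPM per kb of exon for the 10 members, stacked (vertical axis from 0), with the 3 anti-apoptotic members in blue at the bottom. Cisplatin mice had the tallest blue part, 165 CPM per kb, and co-treated mice had 121 CPM per kb of anti-apoptotic and 122 CPM per kb of pro-apoptotic transcripts.

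Summed per kb, the 3 anti-apoptotic members came to 71.5 ± 7.11 CPM per kb with vehicle (n = 5), 73.7 ± 6.10 with KW6002 (n = 6), 165 ± 9.67 with cisplatin (n = 5) and 121 ± 11.3 with both drugs (n = 6). The 7 pro-apoptotic members came to 61.0 ± 4.61, 57.4 ± 5.13, 127 ± 2.89 and 122 ± 6.49 CPM per kb in the same order. Both sums were thus higher with cisplatin, and with added KW6002 the anti-apoptotic sum was lower (105 to 138 against 153 to 174 CPM per kb), while the pro-apoptotic sums overlapped. These sums and the ratios below are descriptions without a test.

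The ratio of Bax to Bcl2, a common summary of apoptotic balance, is given as a ratio of CPM without regard to length, so it serves for comparison between groups only. It was 1.35 ± 0.12 with vehicle (n = 5), 1.31 ± 0.099 with KW6002 (n = 6), 5.28 ± 0.56 with cisplatin (n = 5) and 6.41 ± 0.94 with both drugs (n = 6). The cisplatin range of 4.60 to 5.99 lay far above the vehicle range of 1.16 to 1.48 and overlapped with the co-treated range of 5.05 to 7.65.

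Among the more abundant survival members, the ratio to Bcl2l1 gave a different picture, while the ratio to Mcl1 rose with cisplatin as well. Bax to Bcl2l1 was 0.246 ± 0.045 with vehicle (n = 5) and 0.201 ± 0.014 with cisplatin (n = 5), with overlap, and 0.384 ± 0.042 with both drugs (n = 6), where the lowest mouse (0.339) was above every mouse of the other 3 groups. The vehicle mice of the 300s averaged 0.276 (n = 3) and those of the 500s 0.201 (n = 2), the same as the cisplatin mice, all of the 500s. The ratio of Bax to Mcl1 went from 0.173 ± 0.019 with vehicle to 0.302 ± 0.006 with cisplatin and 0.404 ± 0.046 with both drugs, without overlap between these groups. The ratio of all pro-apoptotic to all anti-apoptotic members, per kb, was 0.864 ± 0.13 with vehicle, 0.788 ± 0.13 with KW6002, 0.773 ± 0.040 with cisplatin and 1.006 ± 0.053 with both drugs. In the last group 6 of 6 mice (0.927 to 1.07) lay above the highest cisplatin mouse (0.810).

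Number series weighed on these ratios. Vehicle mice of the 300s had pro- to anti-apoptotic ratios of 0.904 to 1.0098 and those of the 500s ratios of 0.724 to 0.736, and KW6002 mice split likewise, into 0.872 to 0.945 and 0.660 to 0.684. The 5 mice of the 500s without cisplatin (0.660 to 0.736) overlapped with the cisplatin mice (0.717 to 0.810), and co-treated mice lay above both. Among the 11 mice without cisplatin, Bcl2l1 (99.6 ± 8.05 CPM in the 300s, n = 6, and 130 ± 5.77 CPM in the 500s, n = 5), Mcl1 (150 ± 6.04 and 165 ± 1.42 CPM) and Bid (83.5 ± 8.70 and 62.3 ± 4.70 CPM) did not overlap between the series, as was so for 6.56% of all tested genes. With the mice of the 500s alone, all 9 members called for cisplatin against vehicle were called in the same direction, among them Bcl2l1 at 1.62 and Bax at 1.61 on the log2 scale. That fit holds only 2 vehicle mice, and it called 11208 of 17761 tested genes in this comparison.

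**Figure D4:**
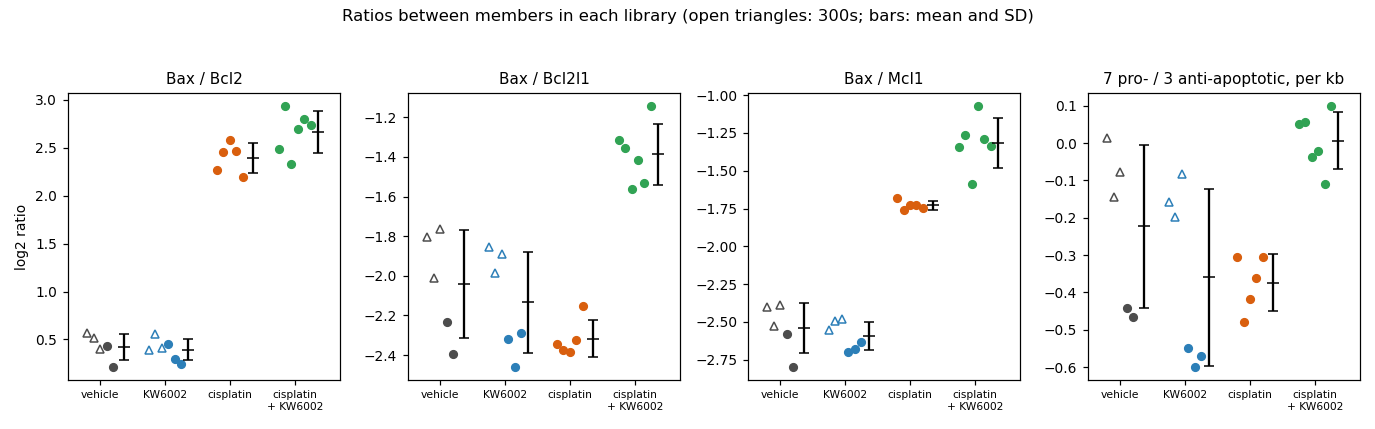
Log2 ratios (vertical axes, which differ between panels and do not start at 0) of Bax to Bcl2, Bax to Bcl2l1, Bax to Mcl1, and the summed pro- to the summed anti-apoptotic members per kb, in each library. Open triangles are mice of the 300s, filled circles mice of the 500s, and bars the mean and SD. Co-treated mice lay above all others for Bax to Bcl2l1, and the mice without cisplatin split by number series in the last panel.

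Other genes of the mitochondrial pathway were read from lists rather than picked by their change. Of 61 such genes 54 were tested, and 42 were called for cisplatin against vehicle, 35 for both drugs against cisplatin, and 0 for KW6002 against vehicle. These counts stand beside 70.5% and 55.8% of all tested genes called in the first and second of these comparisons. In the third, DESeq2 also called 0. By edgeR 3 of the 54 had an unadjusted p below 0.05 there, beside 1930 of all 17131 tested genes. Among 13 further BCL2 relatives, 8 were tested. With cisplatin 3 of these rose (Bcl2l14 by 0.87, Bcl2l13 by 0.37 and Bok by 0.22 on the log2 scale) and 5 did not pass the test, including the survival member Bcl2l2 (0.06, adjusted p = 0.257) and the BH3-only genes Bad (0.01, adjusted p = 0.897) and Bmf (0.37, adjusted p = 0.0659). With KW6002 added 5 fell, among them Bmf (-0.61, adjusted p = 0.00434) and Bcl2l2 (-0.22, adjusted p = 0.000494), and none rose. The median log2 fold change of these relatives was 0.14 and then -0.31, beside 0.91 and -0.21 for the 10 members.

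Downstream of the pore, cytochrome c assembles the apoptosome with APAF1 and caspase 9, which starts the caspase cascade. With cisplatin Apaf1 rose (1.88, adjusted p = 2.06e-12), Cycs, which encodes cytochrome c, fell (-0.95, adjusted p = 4.17e-06), as did Casp6 (-0.23, adjusted p = 0.00484), and Casp9 differed by 0.08 (adjusted p = 0.266). With KW6002 added, Apaf1 (-0.45, adjusted p = 0.000988), Casp6 (-0.26, adjusted p = 0.00194) and Casp9 (-0.17, adjusted p = 0.0131) fell, and Cycs differed by -0.01 (adjusted p = 0.963). Apaf1 was still called higher than vehicle with both drugs (1.43, adjusted p = 4.07e-10).

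Genes for other released proteins and for caspase inhibitors split. Aifm1, which encodes apoptosis-inducing factor, fell with cisplatin (-1.28, adjusted p = 1.1e-12) and was higher with KW6002 added (0.79, adjusted p = 6.73e-09). The inhibitors Xiap (0.43), Birc2 (0.80), Birc3 (1.73) and Birc5 (1.31) rose with cisplatin and were lower with KW6002 added (-0.34, -0.47, -0.74 and -1.28). Birc5 is also a mitotic gene. Htra2 fell with cisplatin (-0.22, adjusted p = 0.00518) and was higher with KW6002 added (0.16, adjusted p = 0.0325), and Diablo was called in neither comparison.

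Among 14 tested partners of BCL2 proteins, 4 rose and 8 fell with cisplatin, and 6 rose and 3 fell with KW6002 added. Among all tested genes 34.6% rose and 35.9% fell with cisplatin, and 28.6% rose and 27.2% fell with KW6002 added. Vdac2, a channel that binds BAK, fell by 0.34 with cisplatin (adjusted p = 1.29e-06) and was higher by 0.23 with KW6002 added (adjusted p = 0.000173). Mtch2, a receptor for BID, fell by 0.53 (adjusted p = 1.53e-11) and was higher by 0.40 (adjusted p = 4.45e-09). Bnip3, a mitophagy receptor, rose by 0.93 (adjusted p = 1.7e-07) and fell by 0.53 with KW6002 added (adjusted p = 0.00023). Of 4 enzymes that attach ubiquitin to MCL1 or remove it, Fbxw7 rose with cisplatin (0.72, adjusted p = 4.59e-08), Btrc fell (-0.87, adjusted p = 1.42e-12), and Huwe1 and Usp9x did not pass the test. With KW6002 added only Btrc of these 4 was called (0.33, adjusted p = 8.84e-06).

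Upstream of the BH3-only genes, all 10 tested genes of the list rose with cisplatin, against 34.6% of all tested genes called higher. With KW6002 added 6 fell and 1 rose, beside 27.2% and 28.6% of all tested genes called lower and higher. Trp53 rose by 0.61 (adjusted p = 1.38e-08) and was -0.37 with KW6002 added (adjusted p = 1.8e-05). Ddit3, which encodes the stress factor CHOP, rose by 1.03 (adjusted p = 1.06e-10) and was -0.64 with KW6002 added (adjusted p = 2.15e-07). Atf4 rose by 0.52 (adjusted p = 4.83e-06) and was the 1 gene of the list that was higher with KW6002 added (0.35, adjusted p = 0.00056). Chac1 on this list is not a transcription factor but an enzyme gene induced by ATF4 and CHOP, and it rose by 2.39 (adjusted p = 2.74e-09).

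The 6 genes of p53 feedback and arrest rose with cisplatin by a median of 3.13 on the log2 scale. Cdkn1a (6.32, adjusted p = 3.21e-15), Phlda3 (4.03, adjusted p = 2.25e-14) and Mdm2 (2.71, adjusted p = 7.14e-18) were among them, beside 2.53 for Bbc3, 2.28 for Pmaip1 and 1.58 for Bax. With KW6002 added 3 of the 6 fell (Mdm2 by 0.54, Cdkn1a by 0.51 and Trp53inp1 by 0.83). Among all tested genes 55.8% were called in this comparison, 27.2% of them lower in the count over all genes. Ccng1 (-0.06, adjusted p = 0.47), Phlda3 (-0.19, adjusted p = 0.322) and Sesn2 (0.23, adjusted p = 0.206) did not pass the test. The calls were thus not the same throughout this list, nor across the 3 BCL2 family targets Bax, Bbc3 and Pmaip1.

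**Figure D5:**
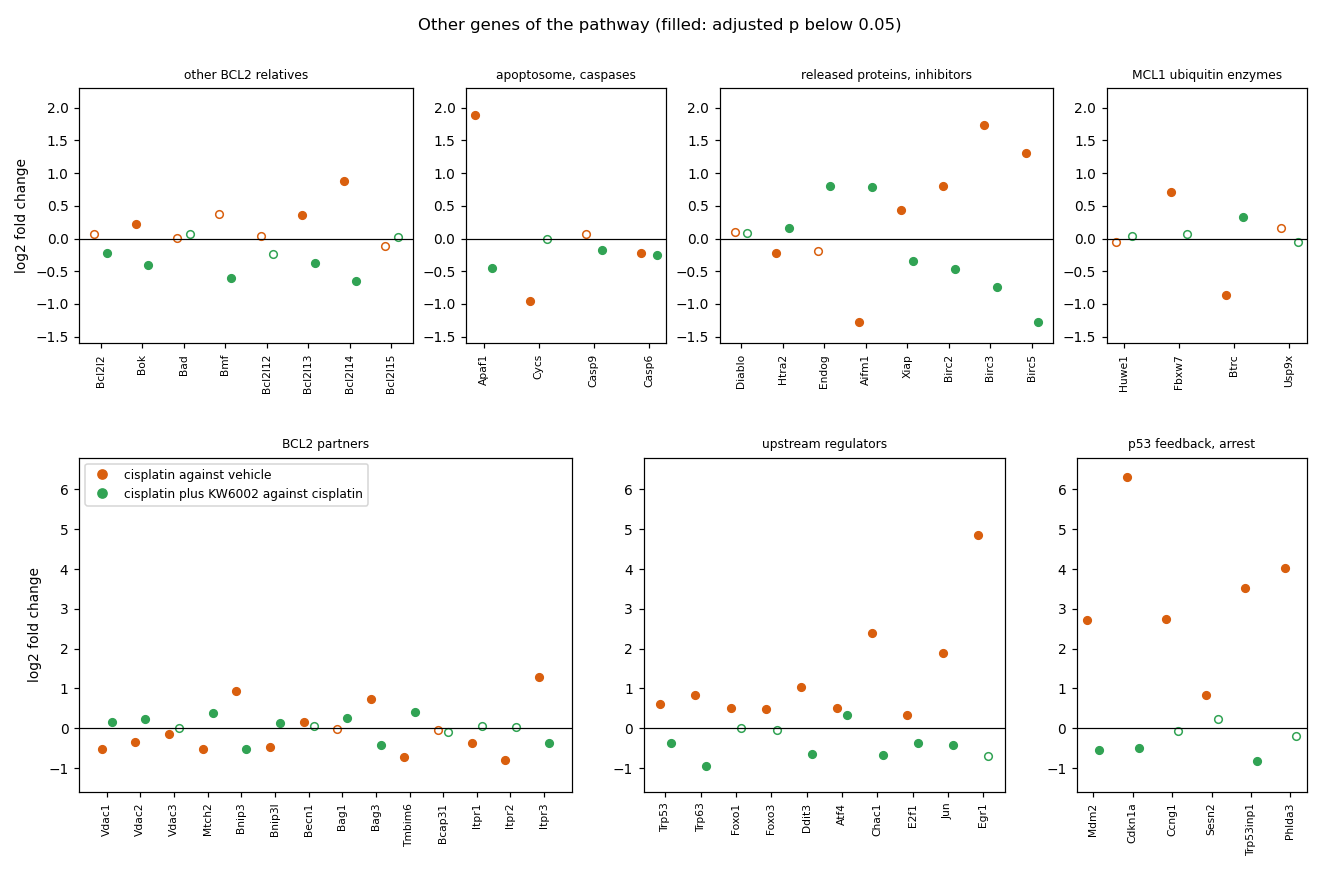
Log2 fold change (vertical axes, one range for the upper and one for the lower panels) of the 54 other tested genes of the pathway, by list, for cisplatin against vehicle and for cisplatin plus KW6002 against cisplatin. Filled points had an adjusted p below 0.05. All genes of the upstream and p53 lists rose with cisplatin, up to 6.32 for Cdkn1a, and the BCL2 relatives lay at or below 0.87 (Bcl2l14) with cisplatin.

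10429 tested genes reached a mean log2 CPM of 3 or more. Among them, those whose profile over the 22 libraries was most like that of Bax were Gsta3, Alas1 and Cdc42bpg, with root mean square differences in log2 CPM of 0.161, 0.202 and 0.205 after centring on the vehicle mean. Gsta3 averaged 1.49 above vehicle with cisplatin and 1.62 with both drugs. Closest to Bcl2 were M6pr, Atp8a1 and Arhgap10, with differences of 0.102, 0.110 and 0.112, and M6pr averaged -0.34 with cisplatin and -0.44 with both drugs relative to vehicle. These likenesses are descriptions over libraries that share groups, depth and tissue.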

How the data were processed

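RNA of 22 kidneys was measured by RNA-Seq. Deposited values are raw counts: the authors made polyA libraries with a stranded kit, mapped single reads to mm10 with STAR, kept unique alignments and counted reads per Ensembl gene with HTSeq 0.6.1p1, without normalization. The strand setting is not given in the sources used here. A further 66 deposited columns have neither name nor value. Symbols, positions and exon lengths came from GENCODE M21, and promoter windows from RefSeq (GRCm38.p6).

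Genes were kept by filterByExpr (a CPM of 0.306 or more, which is 10 counts in a library of median size, in 5 or more libraries, with a total of 15 or more counts). Counts were fitted with edgeR 4.0.16 in R 4.3.3 (TMM, a mean for each group and no covariate, quasi-likelihood tests). Log2 CPM for ratios and likeness used a prior count of 2. Groups came from the sample titles. The genes named are the 10 members, the genes of the pathway and marker lists, and the 3 genes most like Bax and most like Bcl2. Some genes of the pathway lists are not reported here. Members and lists were chosen with earlier results of these data known, as was the label series alternative. Alternatives were DESeq2 1.42.0, other scalings and filters, a fit of only the compared groups, a replicate block, the number series as a covariate, only mice of the 500s, other prior counts, each library left out in turn and, added after seeing the data, a fat marker covariate. The fit was tested on simulated data. Of 50 pairs of libraries within groups, none agreed within sampling noise (lowest chi-square per degree of freedom 2.94). The labels name separate mice, and the intervals are those of differences between groups, with errors estimated from the spread between mice.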

Additional observations from a re-analysis of the deposited data

Results flagged for a closer look

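3 values stood apart from the rest of their group by Dixon's criterion. Bak1 measured 25.6 CPM in co-treated replicate 5, where the other 5 mice ran from 20.1 to 22.2 CPM. Bbc3 measured 19.0 CPM in cisplatin replicate 5, where the other 4 ran from 13.4 to 14.8 CPM. The Bax to Bcl2l1 ratio was 0.225 in the same cisplatin mouse, where the others ran from 0.191 to 0.200. Chance alone flags about 1 in 20 groups, or 2.8 of the 56 groups of values searched.

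The effect of KW6002 differed between mice with and without cisplatin for 7 members, by the test of that difference on the log2 scale: -0.78 for Bcl2l1, -0.59 for Bik, -0.54 for Bak1, -0.37 for Pmaip1, -0.23 for Mcl1, 0.24 for Bax and 0.53 for Bid. Their adjusted p-values are given above, and 42.7% of all tested genes differed in the same test.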

How the results depend on the processing

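Over 490 log2 fold changes of members recomputed under alternative settings, 471 kept their side of the threshold, 14 lost their call and 5 gained one. Of the called differences, 0 reversed direction. Some differences that were not called changed sign, such as Bak1 for KW6002 against vehicle (-0.05, and 0.03 with the mice of the 500s alone). Over 1100 recomputed with 1 library left out, 1087 kept their side of the threshold, 12 lost a call and 1 gained one. The number of members called was within 1.5 times its main value in every other setting than these: 5 with the fat markers as a covariate for both drugs against cisplatin (8 in the main analysis), and 1 with DESeq2 for KW6002 against vehicle (0 in the main analysis), where leaving out 1 library gave 0 to 1, the 1 without vehicle replicate 3. The fat marker covariate also took all genes called for both drugs against cisplatin from 9564 to 6871. The cause was not tested. The log2 ratio of pro- to anti-apoptotic members in vehicle mice was -0.45 with the mice of the 500s alone and -0.22 with all 5. The number of all genes called for KW6002 against vehicle was 3, and 102 with DESeq2, 40 with the number series as a covariate and 64 without vehicle replicate 3.

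Replicate numbers shared between groups did not consistently pair the mice: over 31 pairs the correlation of deviations ran from -0.175 to 0.405, above 0.1 in 7. Vehicle and KW6002 mice of the same replicate number, which also share the number series, gave 0.405, -0.153, 0.132, 0.155 and 0.194. With a replicate block, Bax in the test of the 2 KW6002 effects had an adjusted p of 0.0518, and no other member call changed. Bbc3 had as few as 47 counts in a vehicle library, which limits its fold change more than that of the other members.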
